A study of Mus musculus with 4 samples.

Results

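The cells described here are those of deposited cluster 4 in the CD4 part of a single-cell data set on mouse bone marrow T cells, 65 cells of the 1210 CD4 cells and of 3587 CD4 and CD8 cells in all. They were taken by the cluster number in the authors' deposited per-cell table, 34 cells from the alloBMT library and 31 from the PT-Cy library. The table gives a number and no cell type name. By the markers given below the cells are called regulatory T-like, or Treg-like.

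C57BL/6 mice had received 5000000 bone marrow cells together with 500000 CD4 and 500000 CD8 T cells, all of C3H.SW origin, an allogeneic bone marrow transplant (alloBMT). In the other group the same transplant was followed by cyclophosphamide at 50 mg/kg on day 3 and again on day 4 (PT-Cy). On day 14 the marrow's CD4 and CD8 T cells were isolated by flow sorting, pooled over 4 mice in each group, and processed with the 10x Multiome assay, which reads RNA and open chromatin from the same nuclei. Each group is therefore 1 library of each kind, with no replicate, and the labels do not say which of the sorted cells descend from the donor graft. No test between groups was possible, and every interval below is a 95% interval for counting error only, which leaves out the spread between mice.

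Regulatory T cells are CD4 T cells that restrain other immune cells, and the transcription factor Foxp3 defines their lineage. They take up interleukin-2 through a receptor that includes Il2ra (CD25), hold back costimulation through Ctla4, and release active TGF-beta through the integrin chain Itgb8. After allogeneic transplantation they are known for limiting graft-versus-host disease, and cyclophosphamide given soon after the graft is used to prevent that disease.

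The promoters of 3 genes on which the results turn are shown with the RefSeq annotation of GRCm38.p6, each from 250 bases before to 50 bases after the transcription start. They are Foxp3, the lineage factor (chrX:7579426-7579725, plus strand), Itgb8 (chr12:119238227-119238526, minus strand) and Il7r, the interleukin-7 receptor chain (chr15:9529827-9530126, minus strand). A deposited peak overlapped each promoter, covering 206 of the 300 bases at Foxp3, all 300 at Itgb8 and 192 at Il7r. Capitals mark matches to TATAAA, TTCNNNGAA (the spacing bound by STAT factors), TGTGGTT (a RUNX core) and TGTTTAC (a forkhead core), searched on both strands.
Foxp3: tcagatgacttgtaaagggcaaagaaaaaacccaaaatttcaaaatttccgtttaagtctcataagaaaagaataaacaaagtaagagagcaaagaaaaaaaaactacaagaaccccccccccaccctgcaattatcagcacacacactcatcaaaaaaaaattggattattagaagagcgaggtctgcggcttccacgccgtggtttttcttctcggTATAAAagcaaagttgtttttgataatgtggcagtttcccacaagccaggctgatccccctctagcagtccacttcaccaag
Itgb8: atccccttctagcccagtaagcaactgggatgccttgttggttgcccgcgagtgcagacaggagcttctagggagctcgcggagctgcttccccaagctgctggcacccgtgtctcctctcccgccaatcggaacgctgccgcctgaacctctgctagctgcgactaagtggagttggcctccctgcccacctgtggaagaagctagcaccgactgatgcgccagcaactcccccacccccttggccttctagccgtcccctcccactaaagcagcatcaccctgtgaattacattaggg
Il7r: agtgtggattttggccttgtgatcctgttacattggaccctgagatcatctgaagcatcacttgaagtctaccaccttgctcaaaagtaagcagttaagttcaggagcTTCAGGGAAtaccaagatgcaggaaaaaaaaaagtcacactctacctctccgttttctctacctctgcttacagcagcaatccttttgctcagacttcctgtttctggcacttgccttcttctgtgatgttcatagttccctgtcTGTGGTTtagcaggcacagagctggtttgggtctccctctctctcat
The Foxp3 promoter held TATAAA at base 219 from its 5′ end, and that of Il7r held TTCNNNGAA at base 109 and TGTGGTT at base 254, while the Itgb8 window held none of the 4. Among 32851 RefSeq promoters of this length 13.6% held TATAAA, 8.3% TTCNNNGAA, 5.27% TGTGGTT and 3.65% TGTTTAC. A match describes the letters and is not a binding site.

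The cluster's cells summed to 128977 RNA molecules (UMIs) in alloBMT and 140424 in PT-Cy, and to 323291 and 149884 ATAC counts. A cell held 1541 to 8502 UMIs (median 3224) in alloBMT and 1323 to 20203 (median 3364) in PT-Cy, against medians of 2737 and 3957 in the other CD4 cells. The deepest PT-Cy cell alone gave 14.4% of that library's UMIs in the cluster, and the next held 8972. Every one of the 1210 CD4 cells carried a Cd4 UMI and none a Cd8a UMI, so Cd4 and Cd8a had set which cells the CD4 part holds. The libraries shared 2 cell barcodes, of which 0 were in the cluster.

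The other CD4 cells against which the cluster is set were not alike in the libraries. In alloBMT they were 374 cells of cluster 0, 320 of cluster 1, 42 of cluster 2 and 156 of cluster 3. In PT-Cy they were 4, 0, 238 and 11 cells. The Treg-like cluster made up 3.67% of CD4 cells in alloBMT (exact binomial interval 2.56 to 5.09) and 10.9% in PT-Cy (7.54 to 15.1). Its cell number was thus close in the libraries, while the other CD4 cells numbered 892 and 253. More cells of the cluster, fewer other cells and a different yield of the sort cannot be told apart from shares.

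Foxp3 was read 31 times in 20 of the 34 alloBMT cells and 29 times in 16 of the 31 PT-Cy cells. As counts per 1000000 UMIs of the summed cells (CPM) that was 240 (exact Poisson interval 163 to 341) and 207 (138 to 297), against 3.79 and 13.3 in the other CD4 cells. The cluster, with 4.26% and 11.1% of the UMIs of its libraries' CD4 cells, held 73.8% and 65.9% of their Foxp3 UMIs. Foxp3 was thus 63.3-fold and 15.5-fold higher than in the other CD4 cells, log2 5.99 (4.95 to 7.13) and 3.95 (3.00 to 4.96). The deposited table carries a weight for RNA and for ATAC in each cell, so the clusters are taken to rest on these same genes and peaks, and this and every other contrast of the cluster with other cells describes the cluster and tests nothing.

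Outside the cluster, Foxp3 UMIs were few and spread over all other clusters. In alloBMT clusters 0 to 3 held 3, 6, 1 and 1 Foxp3 UMIs, and in PT-Cy clusters 0, 2 and 3 held 1, 13 and 1. The share of cells with a Foxp3 UMI was 58.8% and 51.6% in the cluster and 1.23% and 4.35% outside it. With each cell thinned to 1981 UMIs it was 38.7% of 31 alloBMT cells and 31.03% of 29 PT-Cy cells, and 0.626% and 0.870% outside, where 93 and 23 shallower cells were left out. S100a9, a granulocyte gene that T cells lack, had a UMI in 5.88% and 12.9% of the cluster's cells and in 3.03% and 15.02% of the others. The Foxp3 share outside the cluster was at or below that of S100a9, and the share inside was above it. S100a9 comes from other cells than Foxp3, so whether the outside Foxp3 UMIs are free RNA or the cells' own was not tested.

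Cells with and without a Foxp3 UMI both carried the other Treg genes. Ikzf2, which encodes Helios, stood at 6552 CPM in alloBMT cells with a Foxp3 UMI and 5414 in those without, and at 5170 and 5038 in PT-Cy. Il2ra stood at 480 and 443 CPM in alloBMT and at 333 and 356 in PT-Cy. For Ctla4 the levels were 1310 and 1291 CPM in alloBMT and 988 and 656 in PT-Cy. The separate intervals of each of these 6 pairs overlapped, by least for Ikzf2 in alloBMT (5993 to 7149 against 4800 to 6086). Such overlap does not show that the levels are alike, and the ratios of these pairs were not tested. Ikzf2 in alloBMT and Ctla4 in PT-Cy stood higher in the cells with a Foxp3 UMI. The 11 alloBMT and 11 PT-Cy cells outside the cluster that carried a Foxp3 UMI had 1894 and 3293 CPM of Ikzf2, below the cluster's cells and above the other CD4 cells as a whole (395 and 1120) in both libraries. Their Il2ra level was 22.3 and 229 CPM, from 1 and 16 UMIs, and their Itgae level 178 and 85.9 CPM, from 8 and 6.

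**Figure D1:**
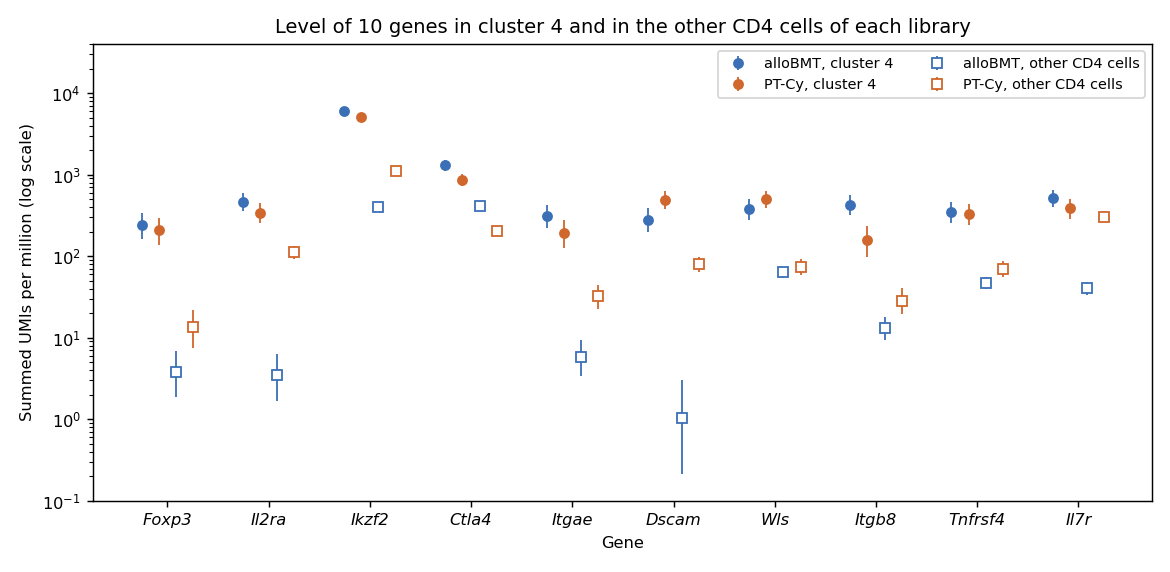
CPM (log axis) of 10 genes in cluster 4 and in the other CD4 cells of each library, with exact Poisson intervals as bars. Foxp3 lies at 240 and 207 in the cluster and at 3.79 and 13.3 elsewhere, while Il2ra outside the cluster lies far higher in PT-Cy (111) than in alloBMT (3.45).

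The number of marker genes per cell was counted next, as a description, since these are the cluster's own markers. Of Foxp3, Il2ra, Ikzf2, Ctla4, Itgae, Dscam, Wls and Itgb8, a cluster cell carried a median of 5 in each library. At least 4 of these 8 genes were found in 30 of 34 alloBMT cells and 25 of 31 PT-Cy cells, 88.2% and 80.7%. Outside the cluster the same was true of 3 of 892 alloBMT cells (0.336%) and 43 of 253 PT-Cy cells (17%). The outside share was thus higher in PT-Cy, whose cells were also deeper. Whether the genes go together beyond their single shares was not tested; inside the cluster Dscam and Foxp3 were found together in 5 alloBMT cells, of 10 with Dscam and 20 with Foxp3.

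Ikzf2 was the marker found in every cell. A cell held 5 to 52 UMIs (median 22) in alloBMT and 1 to 120 (median 18) in PT-Cy, and the sums were 786 and 719 UMIs. The cluster's level was 6094 and 5120 CPM against 395 and 1120 in the other CD4 cells, log2 3.95 (3.81 to 4.08) and 2.19 (2.06 to 2.33). The smaller gap in PT-Cy came with a higher level outside: Ikzf2 was higher in PT-Cy than in alloBMT among other CD4 cells by log2 1.5 and slightly lower inside the cluster, -0.25 (-0.40 to -0.10).

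The interleukin-2 receptor chain Il2ra was close to absent from other CD4 cells in alloBMT and not in PT-Cy. The cluster held 60 Il2ra UMIs in alloBMT beside 10 in the other CD4 cells, 85.7% of all, and in PT-Cy 48 beside 125, 27.8% of all. Inside, its level was 465 CPM (355 to 599) and 342 (252 to 453), found in 22 and 15 cells. Outside it was 3.45 and 111 CPM, a log2 ratio of 5.01 (4.08 to 6.11) between libraries, with 111 CPM in PT-Cy cluster 2 and 137 in cluster 3. Il2ra thus set the Treg-like cells apart by log2 7.08 in alloBMT and 1.62 in PT-Cy. The other CD4 cells belong to different clusters in the libraries, and the part of this in the outside ratio was not tested. Il2rb, the shared beta chain, was near the level of other CD4 cells in each library, log2 0.08 and 0.23.

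Il7r, which signals for interleukin-7 and is textbook-low on Treg cells, was not low here. It had 66 UMIs in 21 alloBMT cells and 54 in 21 PT-Cy cells, 512 and 384 CPM. In alloBMT this lay 12.6-fold above the other CD4 cells (40.7 CPM), log2 3.65 (3.19 to 4.10), and in PT-Cy close to them (300 CPM), log2 0.36 (-0.08 to 0.78). Inside the cluster the libraries differed by -0.41 (-0.96 to 0.13), outside it by 2.88, again over cells of different clusters. Il7r and Il2ra were found together in 14 alloBMT and 9 PT-Cy cells of the cluster.

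Among adhesion genes Itgae (CD103) had 40 and 27 UMIs in 12 and 14 cells, and Itgb8 had 55 and 22 in 18 and 11. Itgae was higher than in other CD4 cells by log2 5.72 (4.87 to 6.64) in alloBMT and 2.58 (1.81 to 3.35) in PT-Cy, and Itgb8 by 5.02 (4.4 to 5.66) and 2.46 (1.61 to 3.29). Itgb7, the beta chain that pairs with Itgae, had 46 and 92 UMIs, log2 2.47 and 1.09 over the others. Between libraries Itgb8 differed inside the cluster, 426 CPM (321 to 555) against 157 (98.2 to 237), log2 -1.44 (-2.23 to -0.71). Among other CD4 cells it went the opposite way, 1.12 (0.39 to 1.84).

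Dscam and Wls, an adhesion molecule of the nervous system and a carrier for Wnt secretion, are the less usual markers of the cluster. Dscam had 36 UMIs in 10 alloBMT cells, 14 of them in 1 cell, and 69 in 15 PT-Cy cells, with at most 17 in 1 cell. In alloBMT only 3 Dscam UMIs lay outside the cluster, and in PT-Cy 89 did, all in 36 cells of cluster 2. So the cluster held 92.3% of the CD4 Dscam UMIs in alloBMT and 43.7% in PT-Cy. Wls had 49 and 70 UMIs in 22 and 25 cells and stood above the other CD4 cells by a like amount in each library, log2 2.58 (2.10 to 3.04) and 2.75 (2.27 to 3.23). Further Treg markers were little read: Ikzf4 (Eos) had 11 and 14 UMIs, Capg 10 and 18, Gpr83 1 and 2, and Rtkn2 0 and 1.

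Of 16 listed costimulation and TNF receptor family genes, 12 met the minimum described below in alloBMT, of which 5 were at least 2-fold higher in the cluster than in other CD4 cells and 2 lower (median 0.68), and 13 in PT-Cy, of which 5 were higher and 2 lower (median 0.26). Over all genes 3.65% and 3.27% were higher and 9.16% and 8.42% lower. The 2 lower members were ligands in both libraries, Cd40lg (-3.38 and -1.69) and Tnfsf8, while Cd28 (-0.05 and 0.20) and Cd27 (0.12 and 0.26) lay near the other cells. Tnfrsf4 (OX40) had 45 and 46 UMIs, log2 2.88 and 2.22, and Ctla4 had 168 and 121, log2 1.68 and 2.10. The values were 1.32 and 1.47 for Tnfrsf18 (GITR), 1.45 and 1.22 for Tnfrsf9 (4-1BB) and 1.94 and 1.0 for Icos. Ctla4 was read in 30 alloBMT and 23 PT-Cy cells and was lower in PT-Cy inside the cluster, -0.60 (-0.95 to -0.25), as it was outside, -1.02.

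Over all genes with at least 20 UMIs in a library's CD4 cells and at least 5 expected in the cluster by depth, 169 of 4631 (3.65%) were at least 2-fold higher in the cluster in alloBMT and 424 (9.16%) at least 2-fold lower. In PT-Cy 168 of 5131 (3.27%) were higher and 432 (8.42%) lower. Of 4384 genes that met the minimum in each library, 45 were higher and 80 lower in both. Of 25 genes listed for Treg identity, 11 met the minimum in alloBMT and 8 of them were at least 2-fold higher, with a median log2 ratio of 1.45 against -0.07 for all genes. In PT-Cy 12 of 18 were higher and 1 lower, with a median of 1.35 against -0.04. Foxp3 in both libraries and Il2ra, Itgae, Itgb8 and Dscam in alloBMT were too rare elsewhere to meet the minimum, and the list holds the genes by which the cluster was recognised, so its counts describe and support nothing. Genes listed for suppression were not raised as a set. Of these 17, 12 met the minimum in alloBMT, with 2 at least 2-fold higher and 2 lower (median 0.14). In PT-Cy 10 met it, with 1 higher and 1 lower (median -0.28). Their summed level was 2326 and 2307 CPM in the cluster and 2439 and 2204 outside.

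Other genes led the cluster in both libraries as well. Neb, which encodes the muscle filament protein nebulin, had 105 UMIs in 29 alloBMT cells and 55 in 22 PT-Cy cells, log2 3.15 (2.81 to 3.48) and 2.36 (1.84 to 2.86) over the other CD4 cells. Ttn (titin) was higher by 2.27 and 2.10, the myosin Myo1e by 2.45 and 2.20, and the G protein subunit Gng12 by 5.61 and 2.51. The interferon-induced GTPase gene Iigp1 was higher by 2.44 and 2.37. Nckap5 had 32 UMIs in 9 alloBMT and 11 in 5 PT-Cy cells, and Frmd5 8 and 27 UMIs of which 7 and 24 came from 1 cell, so these values rest on few cells. Src, also among the leading genes by interval, had 2 and 3 UMIs in the cluster and 0 outside, too few for a fold.

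Other genes were lower in the cluster than in other CD4 cells in both libraries. Fasl, the death ligand, had 3 and 2 UMIs in the cluster, log2 -3.18 and -2.66, and Tnfsf8 (CD30 ligand) 2 and 3, log2 -2.64 and -3.40. The chemokine receptor Cxcr6 was lower by log2 -1.82 (-2.66 to -1.09) and -2.24 (-3.31 to -1.34). Themis, a T cell receptor signalling adaptor, had 388 and 570 CPM against 1465 and 1327, log2 -1.92 and -1.22. The phosphodiesterases Pde7a (-1.75 and -2.09) and Pde3b (-1.82 and -2.77) were lower too, as were Tmem163, Arsb, Mctp2 and, in alloBMT with 3 UMIs against 0 in PT-Cy, Prr5l.

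Effector and cytotoxic genes were mostly lower in the cluster. Of 24 listed genes 18 met the minimum in each library, of which 10 in alloBMT and 8 in PT-Cy were at least 2-fold lower and 0 and 1 higher. Over all genes 9.16% and 8.42% were lower and 3.65% and 3.27% higher. The list's medians were -1.01 and -0.83. Nkg7, a granule protein, had a log2 ratio of -1.01 and -0.93, and the chemokine gene Ccl5 -0.74 and -0.43. The member that was higher was Klrg1 in PT-Cy, an inhibitory receptor also found on effector Treg cells, with 15 and 32 UMIs in the cluster, log2 3.04 in alloBMT (under the minimum there) and 2.05 in PT-Cy.

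Of the helper lineages, several genes of interleukin-17 cells were at 0 in the cluster. Il17a, Il17f, Il22, Il23r and Il1r1 had 0 UMIs in its 34 and 31 cells, while 48 Il23r UMIs lay in other PT-Cy CD4 cells. Other members of that list, which Treg cells are also known to use, were read: Rora (64 and 85 UMIs, log2 1.01 and 0.24 over the others), Maf (93 and 79, 0.39 and 0.79) and Stat3 (84 and 38, -0.06 and -0.14). The list of 11 genes as a whole stood at 2008 and 1588 CPM in the cluster and 1508 and 1323 outside. Tbx21, the factor of Th1 cells, had 7 and 7 UMIs, log2 -1.08 and -1.22 against the others, and Ifng 14 and 11. Gata3, used by Th2 and tissue Treg cells, had 30 and 46, log2 0.91 and 0.52. Il10, an anti-inflammatory cytokine, had 11 UMIs in 8 alloBMT cells and 3 in 1 PT-Cy cell.

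Markers of other cell types were read in part. Members at 0 in the cluster numbered 8 and 5 of 11 B cell genes in alloBMT and PT-Cy, 6 and 5 of 10 erythroid genes, 11 and 7 of 14 myeloid genes, 7 and 7 of 11 dendritic genes, 5 and 3 of 13 natural killer and innate lymphoid genes and 12 and 12 of 16 innate-like T genes. The B cell genes Ms4a1 and Ebf1, the myeloid genes Csf1r, Mpo and Elane, the dendritic gene Flt3, the erythroid gene Klf1, the natural killer gene Ncr1 and the innate-like T genes Trdc, Zbtb16 and Sox13 were all at 0 in the cluster. Summed over lists, erythroid genes stood at 186 and 612 CPM in the cluster and 249 and 967 outside, and innate-like T genes at 62.0 and 35.6 against 138 and 244. B cell genes stood higher in the cluster (85.3 and 207 CPM) than outside (23.1 and 71.2), with the antibody gene Ighm giving 5 and 18 of the 11 and 29 UMIs. Myeloid genes stood at 46.5 and 99.7 CPM against 45.9 and 346, and dendritic genes, a list that includes Cd74 (23 and 26 UMIs), at 256 and 271 against 63.5 and 267. Hbb-bs, the red cell haemoglobin gene, had 10 UMIs in 9 alloBMT cells and 47 in 21 PT-Cy cells, log2 2.11 higher in PT-Cy inside and outside the cluster alike. Cd8b1 had 7 and 2 UMIs. The T cell genes Cd3e (82 and 80 UMIs) and Trac (95 and 104) were well read. Median mitochondrial shares were 2.88% and 3.69% in the cluster and 3.69% and 4.8% outside it, and the part of either in any result below was not tested.

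**Figure D2:**
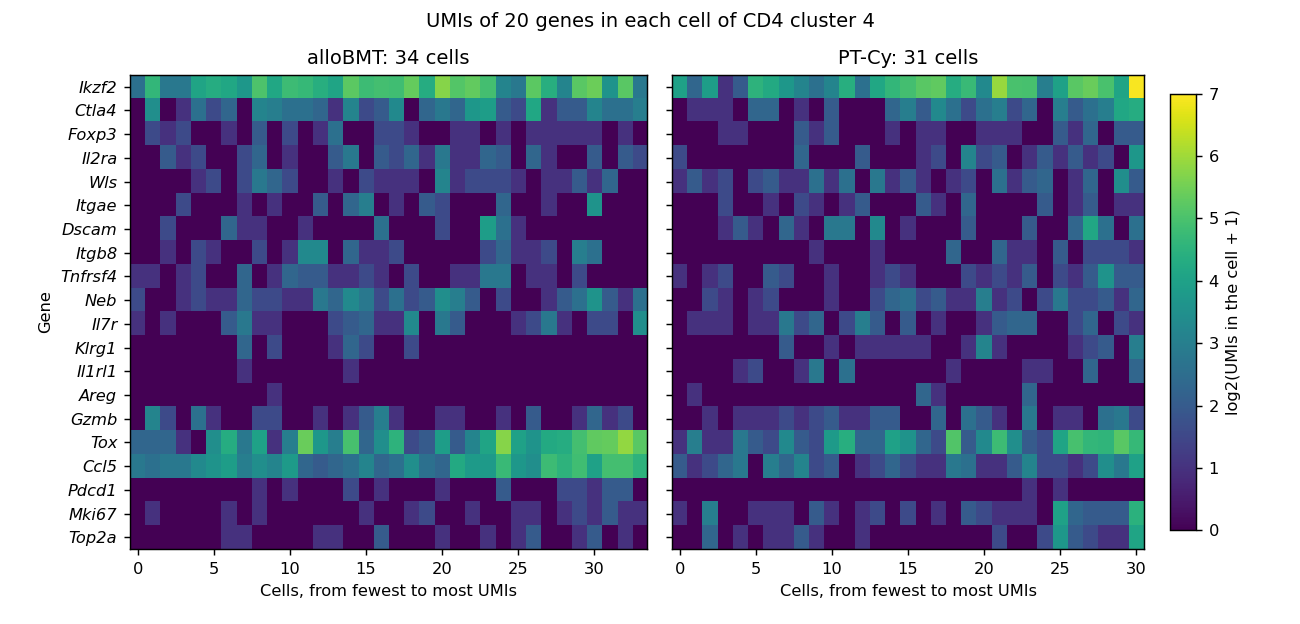
UMIs of 20 genes (rows, colour as log2 of UMIs + 1) in each of the 34 alloBMT and 31 PT-Cy cells of the cluster, ordered from fewest to most UMIs. Ikzf2 is filled in every cell, Foxp3 in 20 and 16, and the last PT-Cy column is the cell with 20203 UMIs.

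PT-Cy was then set against alloBMT inside the cluster. The cluster's cells of the 2 libraries together had 20 or more UMIs for 3046 genes. PT-Cy was 2-fold or more above alloBMT for 219 of them (7.19%) and 2-fold or more below for 227 (7.45%), and the median log2 ratio was -0.01. The interval lay wholly past 2-fold for 18 and 13 of them. In other CD4 cells the median over the same genes was 0.01.

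The Treg identity genes went both ways between the libraries. Of 19 listed members with at least 20 UMIs, 1 was at least 2-fold higher in PT-Cy (Nrp1) and 2 lower (Itgb8 and Izumo1r), with a median of -0.09, shares close to those of all genes (7.19% and 7.45%). At 1.5-fold 4 members were higher and 4 lower. Over the same members in other CD4 cells the median was 0.98. For Foxp3 the ratio inside was -0.22 (-1.0 to 0.56), for Il2ra -0.44 (-1.02 to 0.13), for Tnfrsf4 -0.09 (-0.72 to 0.53), for Icos 0.03 (-0.40 to 0.46) and for Wls 0.39 (-0.16 to 0.95). These intervals include 0 and also allow changes of up to about 2-fold for Foxp3 and Il2ra. Nrp1, a receptor found on Treg cells of thymic origin, had 4 UMIs in 4 alloBMT cells and 23 in 14 PT-Cy cells, 2.40 (0.85 to 4.39), and was likewise higher outside the cluster, 2.73.

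Genes of suppression were mixed. Of 17 listed, 9 had at least 20 UMIs, of which 1 was at least 2-fold higher (Lgals1) and 3 lower (Lag3, Fgl2 and Tigit). Their median was -0.80, and over all genes 7.19% were higher and 7.45% lower. Lag3, an inhibitory receptor, had 20 UMIs in 10 alloBMT cells and 3 in 3 PT-Cy cells, -2.86 (-5.25 to -1.11), and Tigit 17 and 6, -1.62 (-3.26 to -0.21). The outside ratios were -2.90 for Lag3 and -1.76 for Tigit. Fgl2, a secreted suppressive factor, had 19 and 6 UMIs, -1.79 (-3.40 to -0.40), beside -0.02 in other CD4 cells. Lgals1 (galectin-1) had 50 and 120 UMIs, 1.14 (0.65 to 1.65), and 1.05 outside. Tgfb1 (-0.19), Gzmb (0.08) and Cd274 (0.05) had ratios near 0.

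Among genes of tissue Treg cells, Il1rl1 was higher in PT-Cy. It encodes ST2, the interleukin-33 receptor, and had 2 UMIs in 2 alloBMT cells and 26 in 10 PT-Cy cells, 15.5 CPM (1.88 to 56.0) against 185 (121 to 271), log2 3.58 (1.58 to 6.70). Other CD4 cells held 16 and 15 UMIs, a ratio of 1.27 (0.16 to 2.38), so that in PT-Cy 63.4% of CD4 Il1rl1 UMIs lay in the cluster and in alloBMT 11.1%. All 10 PT-Cy cells with Il1rl1 carried Ikzf2, 5 carried Foxp3, 5 Il2ra and 2 Klrg1. Thinned to 1981 UMIs, 7 of 29 PT-Cy cells (24.1%) and 2 of 31 alloBMT cells (6.45%) held an Il1rl1 UMI, beside 6.90% and 6.45% for S100a9. The most in 1 cell was 6 UMIs.

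Areg, the repair factor amphiregulin that ST2-bearing Treg cells make, had 1 UMI in alloBMT and 10 in 4 PT-Cy cells, 1 of which also carried Il1rl1. Klrg1 had 15 UMIs in 6 cells and 32 in 14, 0.97 (0.04 to 1.96), which was -0.14 in the 9 and 3 cells with no division gene UMI, and Gata3 30 and 46, 0.49 (-0.20 to 1.21). Prdm1, the gene of the effector factor Blimp-1, had 18 and 6, -1.71 (-3.33 to -0.31). Of 20 listed tissue Treg genes 12 had at least 20 UMIs, of which 2 were at least 2-fold higher in PT-Cy (Il1rl1 and Cxcr3) and 2 lower (Prdm1 and Id2). Their median was 0.44 beside 0.76 outside, and over all genes 7.19% were higher and 7.45% lower.

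Genes of exhausted and cytotoxic T cells were lower in PT-Cy, inside and outside the cluster. Of 24 listed exhaustion genes, 15 had at least 20 UMIs, of which 5 were 2-fold or more lower and 0 higher. Over all genes 7.45% were lower and 7.19% higher. The list's median was -0.82 and that of the same members outside was -1.21. Tox, the factor tied to exhaustion, had 558 and 349 UMIs, -0.80 (-1.0 to -0.60), and -1.66 outside. Pdcd1 (PD-1) had 20 UMIs in 11 alloBMT cells and 2 in 2 PT-Cy cells, -3.44 (-6.59 to -1.40), and -1.51 outside. Nr4a2 had 40 and 11 UMIs, -1.99. These genes are not particular to Treg cells, and the ratios in other CD4 cells come with the different clusters those cells belong to.

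Ccl5, a chemokine gene of the cytotoxic list, was read in 34 of 34 alloBMT and 29 of 31 PT-Cy cells. Its level was 3187 CPM (2886 to 3510) and 805 (663 to 968), log2 -1.99 (-2.30 to -1.68), and outside -2.30. Of 24 listed genes 10 had at least 20 UMIs, of which 5 were at least 2-fold lower (7.45% of all genes were) and 0 higher (7.19%). The median was -0.96 beside -1.22 outside, and -0.30 when genes with at least 10 UMIs were taken. Nkg7 (-1.12), Ccl3 (-1.91) and Ccl4 (-1.33) were among the 5.

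Several genes of dividing cells had more UMIs in PT-Cy inside the cluster, as outside it. At least 1 UMI of Mki67, Top2a, Cenpf, Cenpe or Kif11 was found in 25 of 34 alloBMT cells (73.5%) and 28 of 31 PT-Cy cells (90.3%), and these 5 genes summed to 403 CPM (301 to 529) and 1389 (1201 to 1598). The other CD4 cells had 650 and 2472 CPM, so that by this sum the cluster lay below its own library in each group. By share of cells with such a UMI the others had 61.0% and 93.7%, so the alloBMT cluster lay above its library there. Its interval (55.6 to 87.1) includes 61.0, and its cells were deeper by median. In alloBMT, Mki67 was found in 44.1% of the cluster's cells and 26.8% of the others, and Top2a in 35.3% and 39.0%. Thinned to 1981 UMIs, the alloBMT shares were 29.03% (14.2 to 48.0) and 20.4% for Mki67, and 25.8% and 29.5% for Top2a. Mki67 had 19 and 78 UMIs, 1.92 (1.18 to 2.72), Hmgb2 39 and 134, 1.66 (1.13 to 2.21), and the histone gene Hist1h2ap 1 UMI in alloBMT and 26 in 17 PT-Cy cells, 4.58 (1.97 to 9.94). Top2a had 18 and 51 UMIs, 1.38 (0.58 to 2.24), with 16 of the 51 in 1 cell. Thinned to 1981 UMIs a cell, Top2a was found in 25.8% of alloBMT and 27.6% of PT-Cy cells, close to equal, and Mki67 in 29.03% and 55.2%. In cluster 2, the CD4 cluster with enough cells in each library, the ratio of Mki67 was -0.08 (-0.32 to 0.17).

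The deepest PT-Cy cell weighed on these genes. It held 56 of the 195 UMIs of the 5 division genes in PT-Cy, and 21 of the 78 Mki67 UMIs. Of 28 listed division genes 10 had at least 20 UMIs, of which 7 were 2-fold or more higher and 0 lower, beside 7.19% and 7.45% of all genes. The list's median was 1.64, and 1.01 without that cell (1.91 outside the cluster). The cell carried 3 Foxp3, 120 Ikzf2, 12 Il2ra and 19 Ctla4 UMIs and 0 of Cd8b1, Lyz2 and Cd79a. Whether it is 1 cell or a doublet was not tested.

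Several surface genes were higher in PT-Cy and spread over many cells. Pecam1 (CD31) had 6 UMIs in 3 alloBMT cells and 36 in 18 PT-Cy cells, 2.46 (1.20 to 4.00), and 1.12 outside. The platelet, mast cell and stromal markers listed with it were at 0 in the cluster but for 1 UMI of Itga2b in alloBMT and 1 of Mcpt8 in PT-Cy. Il6ra, the interleukin-6 receptor, had 1 UMI and then 19 in 10 cells, 4.12 (1.47 to 9.50), and 2.60 outside. The integrin chain Itgb1 had 15 and 50, 1.61 (0.76 to 2.55), with a ratio of 0.55 outside. The receptors Cxcr3 (13 and 31 UMIs, 1.13) and Il18r1 (15 and 47, 1.52) were higher too.

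Of the metabolic genes Ass1, the enzyme that makes argininosuccinate, had 2 UMIs in 2 alloBMT cells and 24 in 15 PT-Cy cells, 3.46 (1.45 to 6.59), beside 1.64 outside, with at most 3 in 1 cell. Ldha, lactate dehydrogenase, had 7 and 26, 1.77 (0.53 to 3.22), beside 0.97. Of 21 listed metabolic genes 7 had at least 20 UMIs, of which 1 was at least 2-fold higher, beside 7.19% of all genes. The remaining leading genes were the tubulin gene Tuba1b (5 and 33 UMIs, 2.60), Cenpf (5 and 37, 2.77), Rap1gap2 (2 and 25, 3.52), Aspm (1 and 21, 11 of them in 1 cell) and Nebl (1 and 21, 14 of them in 1 cell).

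The genes lower in PT-Cy inside the cluster, beyond those named, were Srgap3 (40 and 3 UMIs, -3.86), Vps37b (58 and 13, -2.28), C2cd3 (26 and 5, -2.50), Trps1 (133 and 37, -1.97), Setbp1 (79 and 22, -1.97) and Chn2 (62 and 16, -2.08). Chn2 changed direction (1.45) in the 9 and 3 cells with no UMI of the 5 division genes. Some rested on few cells. All 28 Sorcs1 UMIs of alloBMT came from 1 cell, and 0 were found in PT-Cy, at least 10.2-fold lower against a floor of 3 UMIs. Of the 18 Ank3 UMIs of alloBMT 14 came from 1 cell, and its ratio changed direction (1.02) without the 3 deepest cells of each library. Of the 94 Nav2 UMIs of alloBMT 29 came from 1 cell. Nav2 had -2.22 (-2.96 to -1.54) inside and 0.68 (0.37 to 0.98) outside.

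**Figure D3:**
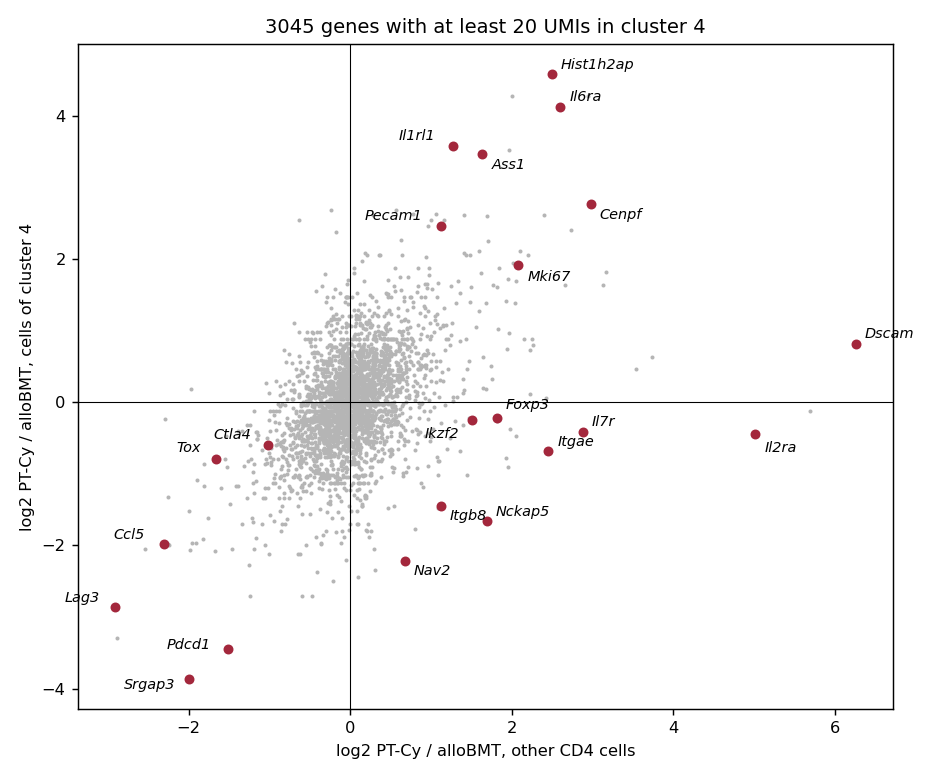
Each point is 1 of 3045 genes with at least 20 UMIs in the cluster and a UMI outside it. The log2 ratio of PT-Cy to alloBMT in the other CD4 cells is on the x axis and inside cluster 4 on the y axis. Il2ra and Il7r lie far to the right at -0.44 and -0.41 inside, Il1rl1 lies high at 3.58, and Ccl5 and Mki67 lie near the diagonal.

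The other lists are given by counts and medians. Each count is to be set beside the shares over all genes, 7.19% at least 2-fold higher and 7.45% lower. Stem and naive genes had 13 of 24 members with at least 20 UMIs, 3 of them at least 2-fold higher (Il6ra and Klf3 among them) and 0 lower, median 0.09 inside (-0.17 without the deepest PT-Cy cell) and 0.76 outside. Trafficking genes had 4 of 12 higher and 1 lower, median 0.70 and 0.65. Interleukin-2 and STAT5 genes had 0 higher and 1 lower of 10 (Il15ra, 18 and 3 UMIs), median -0.21 and 0.03. Foxp3 partner factors had 2 higher (Nfatc2 and Ezh2) and 2 lower (Nr4a2 and Rbpj) of 24, median 0.09 and -0.02. Of 16 costimulation genes 10 had at least 20 UMIs and 0 of these passed 2-fold in either direction (median 0.01), and the same held for the 6 of 19 p53 target genes with at least 20 UMIs (-0.02). Interferon genes (9 of 21, 1 lower, 0.03) and T cell receptor genes (17 of 24, 1 higher, -0.16) had medians near 0, and Th1 genes had 2 higher and 2 lower of 9 (-0.47).

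**Figure D4:**
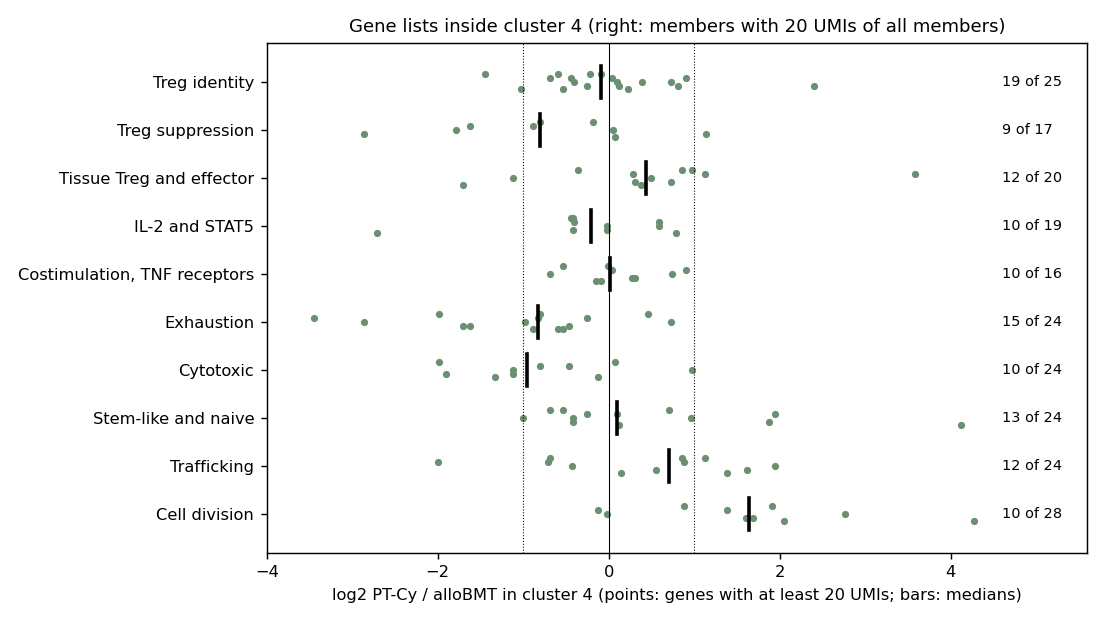
Log2 ratio of PT-Cy to alloBMT inside the cluster (x axis) for the members of 10 gene lists with at least 20 UMIs, 1 point a gene, with the median as a bar. Division genes lie to the right (median 1.64), exhaustion and cytotoxic genes to the left (-0.82 and -0.96), and Treg identity genes around 0 (-0.09).

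Chromatin was read from the same cells at low depth, with a median of 2.73 counts per tested peak to be expected in the cluster in alloBMT and 4.58 in PT-Cy. Of peaks with at least 20 counts, 5890 of 49981 (11.8%) in alloBMT were at least 2-fold more open in the cluster than in other CD4 cells and 10472 (21.0%) less, and in PT-Cy 1201 (6.32%) and 3573 (18.8%) of 19004. Most of these rest on a few counts. With at least 5 counts expected the shares were 1.5% more and 9.33% less open of 16629 peaks in alloBMT, and 1.69% and 9.13% of 8645 in PT-Cy. Between libraries inside the cluster 4.13% of 6374 peaks were at least 2-fold more open in PT-Cy and 7.31% less.

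Summed over peaks overlapping the gene or within 2 kb, Foxp3 was more open in the Treg-like cells, though not at each peak. Its peaks summed to 10 counts in alloBMT and 11 in PT-Cy in the cluster, and 40 and 13 in the much larger set of other CD4 cells, log2 2.36 and 2.97. The peak with the highest lower bound in the genome-wide comparison lay inside Foxp3 (chrX:7583883-7584290, 4.21 to 4.61 kb after its start), with 4 and 6 counts in the cluster, in 4 and 5 cells, and 1 and 2 counts outside, log2 6.36 (3.03 to 11.98) and 4.8 (2.31 to 8.14). The promoter peak overlapping the sequence shown above (chrX:7579520-7579890) had 0 and 3 counts in the cluster and 10 and 0 outside. A peak further into the gene (chrX:7586178-7587048) had 2 and 0 counts in the cluster and 27 and 7 outside. With every peak within 10 kb of the gene counted, the log2 ratio of Foxp3 was 0.28 (-0.27 to 0.79) in alloBMT and 1.09 (0.46 to 1.68) in PT-Cy.

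**Figure D5:**
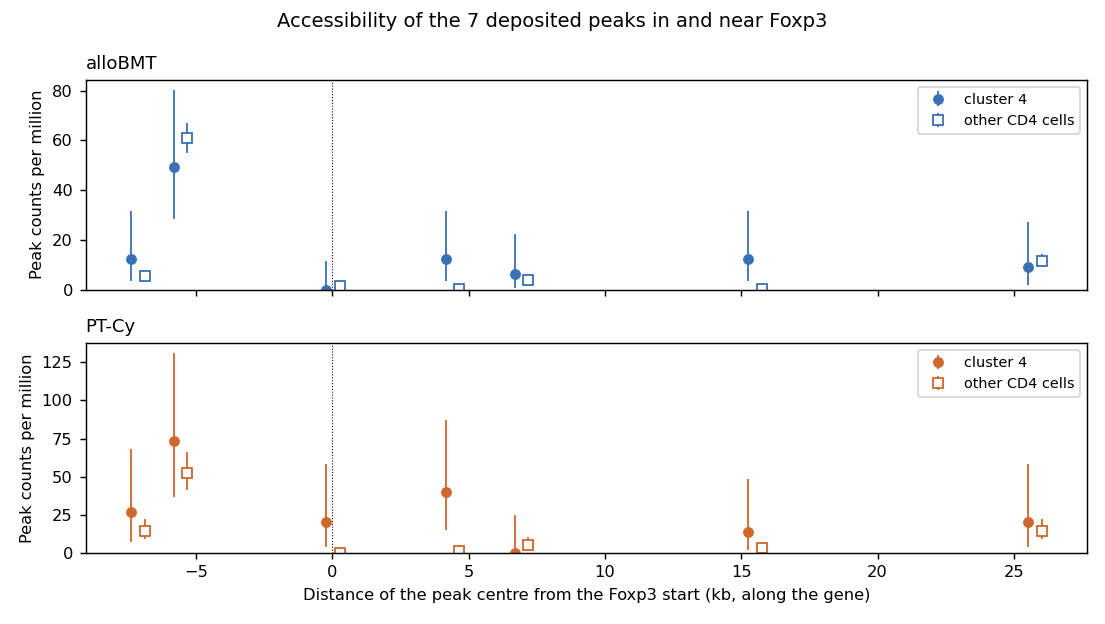
CPM of the 7 deposited peaks in and near Foxp3 against the distance of the peak centre from the gene's start (kb), for the cluster and the other CD4 cells of each library. The peak 4.21 to 4.61 kb into the gene is higher in the cluster in each library and rests on 4 and 6 counts.

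Of the other genes Itgb8 had 38 and 11 peak counts in the cluster and 107 and 26 outside, log2 2.87 and 1.97, and Lrrc32, whose product presents latent TGF-beta on Treg cells, 24 and 10 against 110 and 32, log2 2.17 and 1.53. The Itgb8 promoter peak (chr12:119237577-119238959), which covers the whole sequence shown, had 17 and 6 counts in the cluster and 69 and 15 outside. A peak 1.52 kb from the gene (chr12:119239796-119240087) had 6 and 3 against 9 and 0 and was among the 6 peaks with the highest lower bounds. Lrrc32 RNA was hardly read, with 3 and 1 UMIs. Ikzf2 had 131 and 62 peak counts, log2 1.22 and 1.13.

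At Il7r the cluster was more open in alloBMT (16 counts, log2 1.75) and near the other CD4 cells in PT-Cy (6 counts, 0.12), the same order as its RNA. Its promoter peak (chr15:9529515-9530018) had 7 and 3 counts in the cluster and 35 and 11 outside. Accessibility followed RNA less at other marker genes, with log2 0.27 and 0.23 for Il2ra, -0.48 and -0.20 for Itgae, and 0.49 and -0.13 for Ctla4. Of 12478 genes with enough peak counts in alloBMT 1.43% were at least 2-fold more open in the cluster, and of 10274 in PT-Cy 1.23%. Of the Treg identity genes it was 5 of 23 (median 0.46, all genes -0.06) and 2 of 18 (median 0.10, all genes -0.07), again a description of a list that holds the cluster's own markers. Il1rl1, counted with peaks up to 2 kb away, had 16 and 17 peak counts, log2 1.31 and 1.23 over the others. These sums include peaks that overlap the neighbouring gene Il18r1, chr1:40465428-40466391 (5 and 5 counts) and chr1:40467249-40467601 (2 and 4). The peak over the Areg start (chr5:91139021-91139993) had 13 and 1 counts in the cluster and 73 and 14 outside. Its log2 ratio over the others was 1.873 (0.8973 to 2.736) in alloBMT and -0.5951 (-5.997 to 2.121) in PT-Cy. Inside the cluster PT-Cy over alloBMT was -2.591 (-8.001 to 0.1436), from few counts and opposite in direction to Areg RNA.

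The remaining peaks with the highest lower bounds lay outside genes. They were chr2:9155035-9155944 (5 and 4 counts against 5 and 0, with Gata3 the nearest gene at 701 kb), chr15:72323030-72323612 (6 and 5 against 8 and 1), chr10:54186384-54186613 (2 and 4 against 0 and 0) and chr12:15717210-15717852 (3 and 8 against 2 and 6, 73.9 kb from Trib2). Each rests on 11 or fewer counts in the cluster.

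The deposited table also carries scores named for stem-like and exhausted cells. The median of the RNA score named Stem_Like1 was 0.0773 in alloBMT and 0.0921 in PT-Cy, against -0.0638 and 0.0502 in the other CD4 cells, and 94.1% and 83.9% of the cluster's cells lay above the others' median. For the matching accessibility score the shares were 73.5% and 48.4%. For the exhaustion score Tex1 they were 26.5% and 61.3%. The sources used here do not list the genes behind these scores, so how far Treg genes enter them cannot be read from the values.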

How the data were processed

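Sorted bone marrow T cells were read with 10x Multiome, 1 library of RNA and 1 of ATAC for each group. The authors deposited raw counts of UMIs per gene (32285 genes) and of ATAC counts per peak (148283 peaks), with a per-cell table of cluster numbers, percent values, fraction values, ratio values and score values, of which 42 of 58 columns were not used. Cell Ranger ARC 1.0.1 and MACS2 are named per the submitters' processing notes. Those notes name the human build GRCh38, while 49.2% of 32851 mouse RefSeq start sites of GRCm38.p6 lay in a peak, against 5.57% to 6.55% when shifted, so GRCm38.p6 was used. The sources used here do not give the authors' cell and doublet filters, and no doublet caller was run.

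Within each library the counts of a set's cells were added up. Ratios are of these sums per total count, with exact conditional binomial intervals, levels have exact Poisson intervals and shares exact binomial ones, at 95%. With 1 library per group no test was made. To be counted as past 2-fold or to enter a list's median, genes and peaks needed 20 counts, and against other cells an expected 5 in the cluster for genes. The ranking of the leading genes and peaks of the cluster against other cells by interval bound did not apply these minimums. The ranges of depth are given with the results. Named genes were the 15 highest and 10 lowest in the cluster by interval bound over both libraries, 12 in each direction between libraries, 6 peaks and up to 4 a list; genes and list members named beyond these were chosen after their values were seen. The cluster, members and gene lists were chosen with earlier results of these data known. Thinning drew 1981 or 2355 UMIs a cell. TMM (edgeR 4.0.16) and DESeq2 1.42.0 size factors served only as other scalings. Calculations used R 4.3.3 and Python 3.11.15 with pandas 2.3.3, SciPy 1.17.1 and NumPy 2.4.6, and were tested on simulated data. Some genes are not reported here.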

Additional observations from a re-analysis of the deposited data

Results flagged for a closer look

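Of 3046 genes with at least 20 UMIs in the Treg-like cluster, 27 (0.886%) had counting intervals of the PT-Cy to alloBMT ratio on opposite sides of 0 inside the cluster and in the other CD4 cells, 20 of them lower inside and higher outside. The difference itself was not tested, and the other CD4 cells belong to different clusters in the libraries. The genes named in the report among these are 5. Ikzf2 had a log2 ratio of -0.25 inside and 1.5 outside. Itgb8 had -1.44 inside and 1.12 outside, and Nckap5 -1.66 and 1.69. Nav2 had -2.22 inside, with 29 of its 94 alloBMT UMIs in 1 cell, and 0.68 outside. Themis went the other way, 0.56 inside and -0.14 outside.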

How the results depend on the processing

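Of 476 alternative values, 57 of those for the main results stayed within their range and 40 moved, and for single genes 359 stayed, 17 moved and 3 reversed. For single genes the range was the main interval, which is wide at low counts. The TMM and DESeq2 shifts for RNA inside the cluster were only -0.016 and -0.015 log2. Staying within range thus says little about how firm a single gene's value is. With 1 library per group no replicate could be left out. No paired analysis was possible because each group is 1 library. Genes at least 2-fold higher and lower in PT-Cy inside the cluster numbered 641 and 489 with at least 10 UMIs, 32 and 43 with 50, 2876 and 2606 with no minimum, 133 and 136 in cells with a Foxp3 UMI, and 22 and 50 in cells with no UMI of the 5 division genes. With 10 UMIs the cytotoxic median was -0.30, and with 50 the medians were -0.24 (Treg identity), -0.70 (exhaustion) and -0.33 (stem and naive). In cells with no division UMI, 9 and 3 cells, they were -0.38, -0.21 (exhaustion) and -1.37 (cytotoxic), and Chn2 (1.45) and Klrg1 (-0.14) changed direction. Without the 3 deepest cells of each library Ank3 changed direction (1.02). Without the deepest PT-Cy cell, a choice made after seeing the data, the medians were -0.68 (exhaustion), 1.01 (division) and -0.17 (stem and naive).

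Against CD4 cluster 2 alone 270 genes were higher in the cluster in alloBMT, and against cluster 3 alone 269, with 116 lower in PT-Cy. Against the equal-weight mean of the other clusters 298 were higher in PT-Cy. With no expected count required, also added after seeing the data, 815 were higher and 1701 lower in alloBMT, and 438 and 1047 in PT-Cy. Foxp3 shares were 38.7% and 31.03% after thinning. Peaks more and less open numbered 11732 and 20446 in alloBMT and 3768 and 7178 in PT-Cy with 10 counts, 250 and 1552 and 146 and 789 with 5 expected (added after seeing the data), and 6194 and 10657 over both libraries summed. The causes were not tested. Depth limits single peaks, which rest on a few counts, and genes under 20 UMIs.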

Other observations

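Iigp1, an interferon-induced GTPase gene, has the related genes Gm4951 and F830016B08Rik as neighbours, all within 162 kb. The neighbours were chosen after their values were seen. In the cluster Gm4951 had 29 UMIs in 14 alloBMT cells and 29 in 11 PT-Cy cells, against 1 and 20 in the other CD4 cells. F830016B08Rik had 19 and 5 UMIs in the cluster against 15 and 1, and Iigp1 28 and 58 against 116 and 90. How reads shared between these related genes were counted was not tested, so the separate values are uncertain.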
